A study of Homo sapiens with 16 samples.

Results

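The genes described here are the transcription factor NRF2 (gene symbol NFE2L2), its inhibitor KEAP1 and 7 of the genes that NRF2 is known to activate, NQO1, HMOX1, TXNRD1, SRXN1, GCLC, GCLM and OSGIN1. They were taken by symbol from a count table of 58051 Ensembl genes, in which each of the 9 matched 1 row. LNCaP cells, a line derived from a human prostate cancer metastasis, were sequenced in 2 experiments of 8 libraries, with 4 libraries in each of 4 groups. In the knockdown experiment the cells received Allstar control siRNA (siCtrl) or siRNA against XBP1 (siXBP1) and were kept for 2 days. In the inhibitor experiment they received DMSO (Vehicle) or 10 µM MKC8866, an inhibitor of the IRE1α RNase that splices XBP1 mRNA, for 24 h. All 16 libraries came from cells that were then given 30 nM thapsigargin (TG) for 3 h, which blocks the calcium pump of the ER, so there is no group without ER stress. The model is a single cell line, each experiment has its own control, and the study calls the 4 libraries of a group independent samples without saying whether they were separate cultures, so that p-values measure the spread between these libraries, which may be technical.

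NRF2 is made constantly and, in unstressed cells, is held by KEAP1, which presents it to a CUL3 ubiquitin ligase for degradation by the proteasome. Oxidants and electrophiles modify cysteines of KEAP1, NRF2 then accumulates, pairs with a small MAF protein and binds antioxidant response elements (AREs) near genes of glutathione synthesis, thioredoxin reduction, NADPH supply and heme breakdown. BACH1, a repressor that responds to heme, competes for the same elements. ER stress bears on this system because folding of secreted proteins produces peroxide, because the ER stress kinase PERK (EIF2AK3) can phosphorylate NRF2, and because the ER ubiquitin ligase HRD1 (SYVN1), a well known XBP1s target, can ubiquitinate NRF2. NRF2 itself is regulated mainly as a protein, which counts of mRNA do not measure.

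To show what an ARE looks like in these genes, the RefSeq promoters (GRCh38.p14, 250 bases before to 50 after each start) were searched on both strands for the core TGACNNNGC. Promoters were found for 8 of the 9 genes, all but HMOX1. Of their 11 promoters 4 held the core, which belong to KEAP1, TXNRD1 and GCLM, against 13.3% of all 35116 promoters. The 5 matches that lie wholly before the start are given on the strand of the gene with 10 bases on either side, the core in capitals, and positions counted from the first transcribed base as 0.
TXNRD1, chr12:104215670-104215698, plus strand, core at −99 to −91: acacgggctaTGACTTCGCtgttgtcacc
TXNRD1, second start, chr12:104286920-104286948, plus strand, core at −102 to −94, on the opposite strand: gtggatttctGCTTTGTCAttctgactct
GCLM, chr1:93909446-93909474, minus strand, core at −34 to −26, on the opposite strand: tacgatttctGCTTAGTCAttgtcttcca
KEAP1, chr19:10502807-10502835, minus strand, core at −54 to −46: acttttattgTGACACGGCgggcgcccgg
KEAP1, chr19:10502784-10502812, minus strand, core at −31 to −23, on the opposite strand: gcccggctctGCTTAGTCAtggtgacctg
The elements of GCLM and KEAP1 share the 9 letters GCTTAGTCA. Neither the XBP1s-type element TGACGTGG, which matches the ARE core when a C follows, nor the longer ER stress element (ERSE) was found in these 11 promoters, and 0.729% and 0.0769% of all promoters hold them. A match is a run of letters and not a measured site of binding, and its absence says only that the letters are not in this window.

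Between 28713607 and 34509488 fragments were counted per library. Levels are given as CPM, counts scaled to a common library total with TMM normalization over the 16 libraries, and as CPM per kilobase of exon (FPKM) where genes are compared with each other. XBP1 itself stood at 383 ± 28.0 CPM (SD, n = 4) in siCtrl and 53.2 ± 1.40 in siXBP1, and at 503 ± 25.3 in Vehicle and 579 ± 34.0 in MKC8866. Its gene count does not tell spliced from unspliced mRNA. The 8 luminal prostate markers summed to between 3038 and 4088 CPM in every library, whereas the basal markers KRT5, KRT14 and TP63 together reached at most 1.46 CPM. Neuroendocrine markers together reached at most 4.25 CPM. Stromal and blood markers summed to between 24.8 and 36.6 CPM, where COL1A1 alone had 24.7 to 36.6 CPM. The luminal sum was lower in siXBP1 (3038 to 3137 CPM) than in siCtrl (3589 to 3741) and higher in MKC8866 (3924 to 4088) than in Vehicle (3594 to 3785), and the part of this in the results below was not tested. In bulk RNA, fewer cells that express a gene and less RNA per cell cannot be told apart.

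Per kilobase of exon, TXNRD1 was the highest of the 9 genes with a mean of 54.1 FPKM over the 16 libraries, followed by NQO1 (33.0), KEAP1 (24.7), NFE2L2 (19.1), GCLM (10.4), OSGIN1 (6.25), SRXN1 (5.57), GCLC (4.68) and HMOX1 (3.21). The length counts all exon bases, while fragments on bases shared with another gene were left out, so that the FPKM of SRXN1 (85.0% of bases shared), NFE2L2 (20.9%), NQO1 (17.7%), OSGIN1 (13.9%) and GCLC (6.33%) are too low by an amount not known here, and the place of SRXN1 in this order is uncertain. The order also differs by group, as SRXN1 had a mean of 3.25 FPKM in siCtrl, below HMOX1 (3.69) and GCLC (4.66). HMOX1, with the fewest fragments, still had 181 to 308 counts in each library, and all 9 genes passed the filter on low counts in both experiments.

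After XBP1 knockdown the 9 genes did not move together. HMOX1, TXNRD1 and OSGIN1 fell, NFE2L2, GCLM and SRXN1 rose, and KEAP1, NQO1 and GCLC did not pass the test. Thus 3 of the 9 were called lower and 3 higher at an adjusted p under 0.05 (edgeR's quasi-likelihood test, Benjamini-Hochberg over 21021 genes), where 18.2% of all genes tested were called lower and 16.5% higher. The median log2 fold change of the 9 was 0.05, against 0.0050 over all genes tested. In 5 of the 6, SRXN1 being the exception, the 4 knockdown libraries did not overlap the 4 control libraries. Among all genes tested 17.2% were apart in this way and lower, and 15.5% apart and higher. With MKC8866 none of the 9 was called, and for none did the 4 treated libraries lie apart from the 4 Vehicle libraries (5.29% of all genes were apart and lower, and 3.98% apart and higher).

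**Figure D1:**
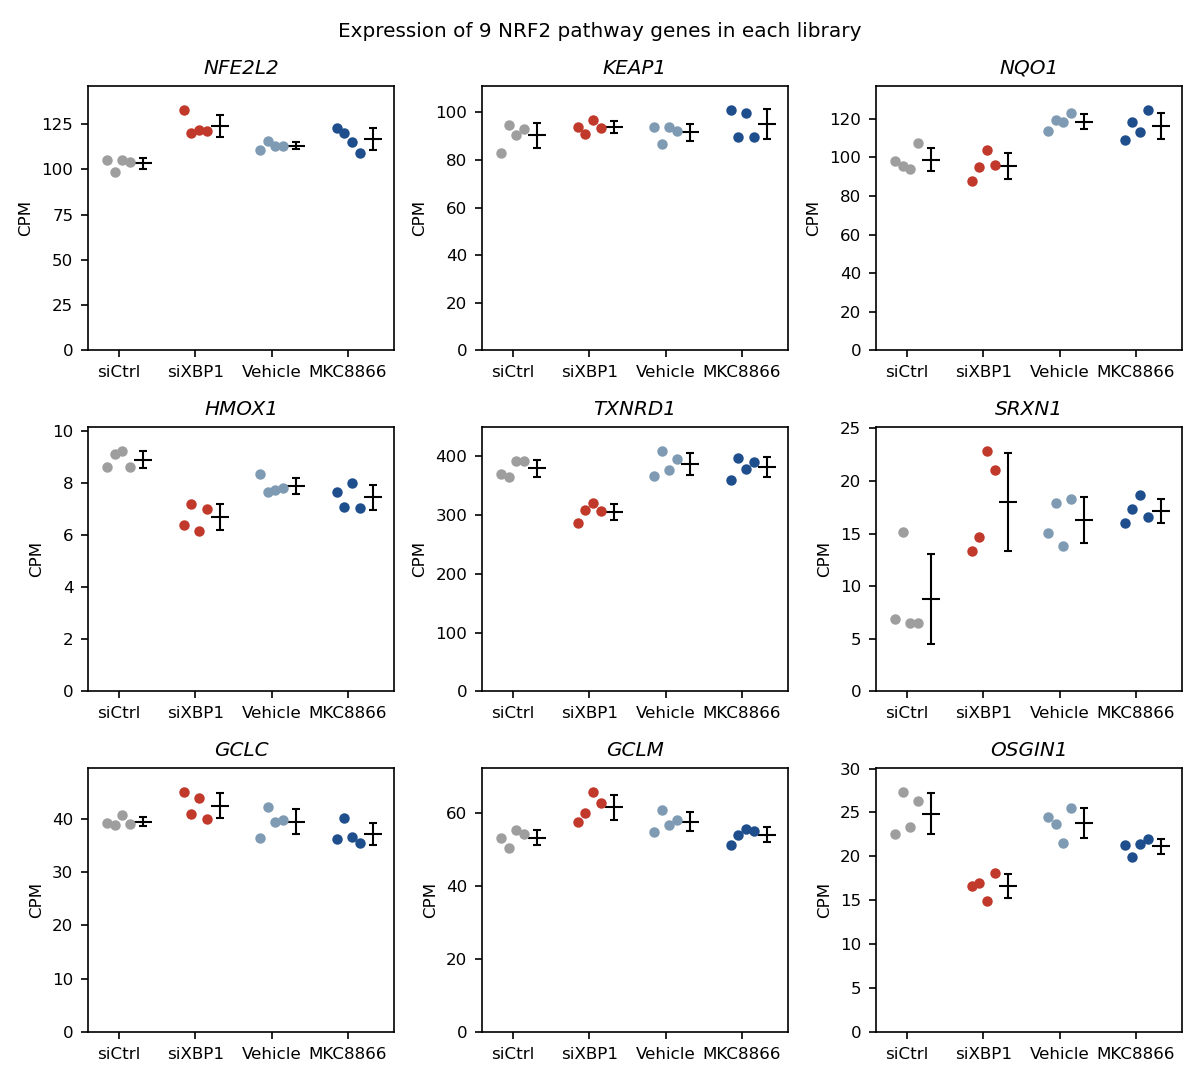
CPM of each of the 9 genes in the 16 libraries, with the 4 libraries of a group as points and the mean ± SD as a bar beside them, on vertical axes that start at 0. The siXBP1 points lie apart from the siCtrl points for NFE2L2, HMOX1, TXNRD1, GCLM and OSGIN1, and 1 of the 4 siCtrl points of SRXN1 lies at 15.1 CPM while the others are between 6.47 and 6.92.

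NFE2L2 (ENSG00000116044, chromosome 2, 177227595 to 177392697, minus strand) encodes NRF2. It measured 98.6, 104, 104.9 and 105 CPM in the siCtrl libraries and 119.8, 121, 121 and 132.7 CPM in the siXBP1 libraries. Every knockdown library was above every control library, the closest 2 values being 105 and 119.8 CPM. This is a rise of 19.9%, or 0.26 on the log2 scale (standard error 0.043, adjusted p = 4.84e-05 in edgeR's quasi-likelihood test). In the inhibitor experiment NFE2L2 was at 113 ± 2.13 CPM in Vehicle and 117 ± 5.98 in MKC8866, with a log2 fold change of 0.05 (adjusted p = 0.673 in the same test). Fragments that overlap another annotated gene were not counted, and 20.9% of the exon bases of NFE2L2 are shared with other genes.

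KEAP1 (ENSG00000079999, chromosome 19, 10486120 to 10503741, minus strand), the adaptor that delivers NRF2 to its ubiquitin ligase, was between 83.1 and 94.7 CPM in siCtrl and between 90.8 and 97.0 in siXBP1. The ranges overlap, and the change was 0.05 on the log2 scale (standard error 0.046, adjusted p = 0.416 in edgeR's quasi-likelihood test). With MKC8866 it was also 0.05 (standard error 0.048), at 91.7 ± 3.51 CPM in Vehicle and 95.1 ± 6.17 in MKC8866. Per kilobase of exon, NFE2L2 stood at 0.721 ± 0.058 times KEAP1 in siCtrl (SD, n = 4), 0.830 ± 0.043 in siXBP1, 0.777 ± 0.045 in Vehicle and 0.774 ± 0.049 in MKC8866. The siCtrl range (0.655 to 0.794) reaches into the siXBP1 range (0.788 to 0.890). Whether NFE2L2 mRNA was less abundant than KEAP1 mRNA is not settled by this ratio. Its lengths count all annotated exon bases, and 20.9% of those of NFE2L2 are shared with other genes, against 0.0% for KEAP1.

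NQO1 (ENSG00000181019, chromosome 16, 69706996 to 69726951, minus strand), a quinone reductase and the customary readout of NRF2 activity, did not differ detectably within either experiment. It was 98.9 ± 6.04 CPM in siCtrl and 95.6 ± 6.70 in siXBP1, which is −0.05 on the log2 scale (standard error 0.053), and 119 ± 3.99 in Vehicle and 116 ± 6.62 in MKC8866, which is −0.03 (standard error 0.045). Between the experiments the picture was different, and the 8 libraries of the inhibitor experiment (109 to 124.6 CPM) all stood above the 8 of the knockdown experiment (87.6 to 107.6).

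HMOX1 (ENSG00000100292, chromosome 22, 35380361 to 35394214, plus strand), which encodes heme oxygenase 1, the enzyme that opens heme and releases its iron, had the lowest mean of the 9 over the 16 libraries, although in siCtrl the mean of SRXN1 per kilobase was lower. It measured 8.59, 8.62, 9.11 and 9.21 CPM in siCtrl and 6.13, 6.39, 7.0 and 7.18 CPM in siXBP1. All knockdown libraries were below all control libraries. HMOX1 fell by 24.8% (log2 fold change −0.41, standard error 0.084, adjusted p = 5.10e-04 in edgeR's quasi-likelihood test). With MKC8866 it was 7.44 ± 0.471 against 7.88 ± 0.320 CPM, and the log2 fold change of −0.08 (adjusted p = 0.721 in the same test) did not pass. No annotated gene overlaps HMOX1.

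TXNRD1 (ENSG00000198431, chromosome 12, 104215779 to 104350305, plus strand) encodes the cytosolic thioredoxin reductase, a selenoprotein that passes electrons from NADPH to thioredoxin. Its siCtrl libraries measured 364, 368, 390.7 and 391 CPM, and its siXBP1 libraries 286, 306, 309 and 319.7 CPM. The knockdown values all lie lower, by 19.4% on average (log2 fold change −0.31, standard error 0.042, adjusted p = 3.24e-06 in edgeR's quasi-likelihood test). In the inhibitor experiment the log2 fold change was −0.02 (standard error 0.041, adjusted p = 0.899 in that test), with 386 ± 18.6 CPM in Vehicle and 381 ± 16.6 in MKC8866. The pseudogene RPL18AP3, with 107449 counts over the 16 libraries against 181834 for TXNRD1, lies within the TXNRD1 locus but shares none of its exon bases.

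SRXN1 (ENSG00000271303, chromosome 20, 646615 to 653370, minus strand), sulfiredoxin, repairs peroxiredoxins whose cysteine has been over-oxidised. Its siCtrl libraries measured 6.47, 6.51, 6.92 and 15.1 CPM, and its siXBP1 libraries 13.4, 14.7, 21 and 22.8 CPM. The high control value is that of siCtrl replicate 2, and it makes the groups overlap. The log2 fold change after knockdown was 1.03 (standard error 0.204, adjusted p = 3.42e-04 in edgeR's quasi-likelihood test), and 1.45 without siCtrl replicate 2 (adjusted p = 7.40e-08). With MKC8866 the values were 17.2 ± 1.16 against 16.3 ± 2.17 CPM in Vehicle, a log2 fold change of 0.08 (adjusted p = 0.737 in the same test).

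The SRXN1 count needs reading with care for a second reason. Of its exon bases 85.0% are also exons of ENSG00000270299, a gene on the same strand that reaches further upstream, and fragments there were assigned to neither gene. ENSG00000270299 had 28 to 46 counts in siCtrl libraries and 38 to 53 in siXBP1 libraries, and did not show the high value of siCtrl replicate 2 (39 counts). UBE2S, an E2 enzyme of the anaphase-promoting complex, did, with 114.8 CPM in siCtrl replicate 2 and 83.7 to 90.2 in the other siCtrl libraries. UBE2S was picked as the gene most like SRXN1 over these same 16 libraries (r = 0.942), so that it is no separate check of this value. Across all 15041 genes with a mean of at least 1 CPM, siCtrl replicate 2 was the library far above the rest of its group for 113 genes, where other libraries had between 52 and 216.

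GCLC (ENSG00000001084, chromosome 6, 53497341 to 53616970, minus strand) and GCLM (ENSG00000023909, chromosome 1, 93885205 to 93909456, minus strand) encode the catalytic and the modifier subunit of glutamate-cysteine ligase, the rate-limiting enzyme of glutathione synthesis. GCLM measured 50.5, 53.1, 54.2 and 55.2 CPM in siCtrl and 57.5, 59.9, 62.7 and 65.6 CPM in siXBP1, with no overlap. It rose by 15.5% (log2 fold change 0.21, standard error 0.050, adjusted p = 0.00218 in edgeR's quasi-likelihood test). GCLC measured 38.7, 39.0, 39.2 and 40.7 CPM in siCtrl and 40.0, 40.9, 43.8 and 45.0 CPM in siXBP1, where the lowest knockdown library lies below the highest control library. Its log2 fold change was 0.11 (standard error 0.050) with an unadjusted p of 0.0473, which became 0.114 after adjustment over all genes in edgeR.

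With MKC8866 both subunits had values on the other side of 0. GCLM was at 57.6 ± 2.51 CPM in Vehicle and 53.9 ± 2.03 in MKC8866 (log2 fold change −0.09, adjusted p = 0.383 in edgeR's quasi-likelihood test), and GCLC at 39.4 ± 2.36 and 37.1 ± 2.08 (−0.09, adjusted p = 0.519). Neither passed the test. Per kilobase of exon, GCLC stood at 0.475 ± 0.013 times GCLM in siCtrl and at 0.438 to 0.444 times in the means of the other groups. GCLM thus had the higher value per kilobase in all 16 libraries (highest ratio 0.501). The lengths count all annotated exon bases, and 6.33% of those of GCLC are shared with other genes. Which subunit had the more abundant mRNA is therefore not settled here.

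OSGIN1 (ENSG00000140961, chromosome 16, 83948282 to 83966332, plus strand), an oxidative stress-induced growth inhibitor, showed the largest fall of the 9. It measured 22.6, 23.3, 26.3 and 27.3 CPM in siCtrl and 14.9, 16.6, 17 and 18.1 CPM in siXBP1. All control libraries were above all knockdown libraries, and OSGIN1 fell by 33.0% (log2 fold change −0.58, standard error 0.073, adjusted p = 1.27e-06 in edgeR's quasi-likelihood test). With MKC8866 it was 21.2 ± 0.859 CPM against 23.8 ± 1.72 in Vehicle, and the highest MKC8866 library (22) lay above the lowest Vehicle library (21.5). The log2 fold change of −0.17 had an unadjusted p of 0.0128 and an adjusted p of 0.159 in edgeR. In an edgeR fit with the replicate number as a block, a pairing the labels do not state, the adjusted p was 0.0184. An annotated gene without a symbol, ENSG00000260300, shares 13.9% of the exon bases of OSGIN1.

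In the inhibitor experiment, then, 0 of the 9 genes were called lower and 0 higher by edgeR, where 3.11% of 21045 genes were called lower and 1.36% higher. At an unadjusted p under 0.05 there was 1 of the 9, OSGIN1, which was lower, where 8.00% of all genes were lower and 7.22% higher at that threshold. With DESeq2 there was none, where 3.42% of all genes were called lower and 1.71% higher. The largest log2 fold changes in either direction were −0.17 for OSGIN1 and 0.08 for SRXN1, and 6 of the 9 were negative, with a median of −0.03 against 0.0027 over all genes. With the replicate number as a block, edgeR called OSGIN1 lower (adjusted p = 0.0184), where 7.05% of all genes were called lower. The labels do not state such a pairing.

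**Figure D2:**
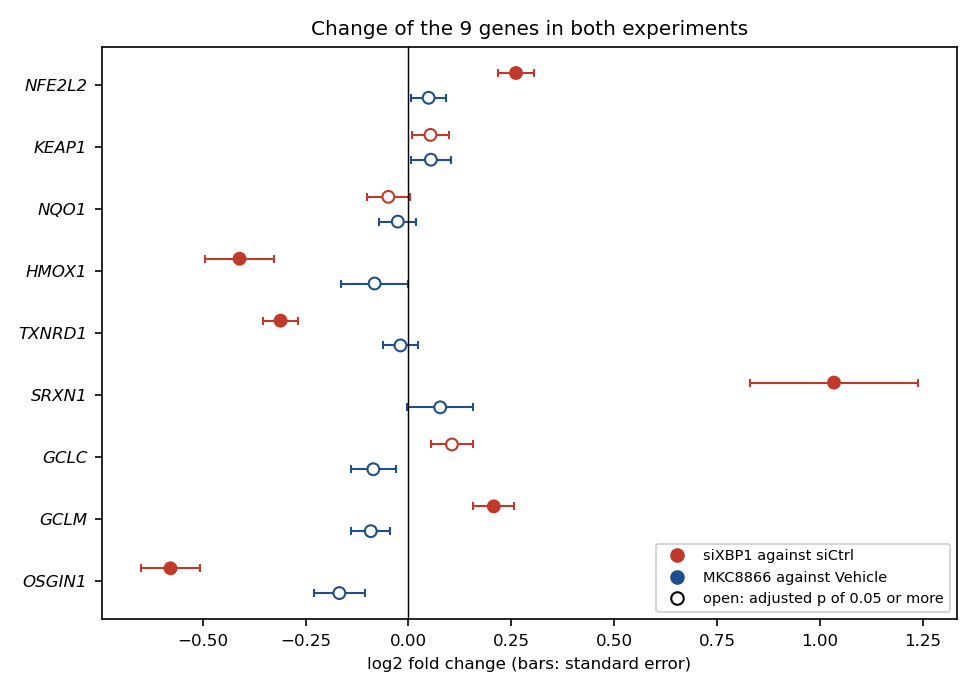
Log2 fold change of the 9 genes after XBP1 knockdown (red) and with MKC8866 (blue), with bars of 1 standard error and filled symbols for an adjusted p under 0.05. Filled symbols occur after knockdown for 6 genes, from −0.58 for OSGIN1 to 1.03 for SRXN1, and all 9 MKC8866 symbols are open and lie between −0.17 and 0.08.

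Whether the 2 responses differed was tested as an interaction in one fit of all 16 libraries, over the 20357 genes kept by the filter in each experiment. The same 6 genes were called, 3 of the 9 with a lower response to knockdown and 3 with a higher one, where 12.7% and 10.6% of all genes were called in these directions. The knockdown response exceeded the inhibitor response by 0.96 for SRXN1 (adjusted p = 0.00561, edgeR's quasi-likelihood test), by 0.30 for GCLM (adjusted p = 0.00130) and by 0.21 for NFE2L2 (adjusted p = 0.00901), on the log2 scale. The difference was −0.41 for OSGIN1 (adjusted p = 0.00244), −0.29 for TXNRD1 (adjusted p = 5.73e-04) and −0.33 for HMOX1 (adjusted p = 0.0327). For HMOX1 the call was lost in 9 of 16 edgeR fits that left out 1 library (highest adjusted p = 0.0784) and without the filter on low counts (adjusted p = 0.104). GCLC differed by 0.19 and missed the threshold (adjusted p = 0.0596 in edgeR), and the differences of KEAP1 (0.0013) and NQO1 (−0.02) did not pass either. Since the experiments have separate controls and different pretreatments, the kind of inhibition and the experiment cannot be told apart.

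The control groups themselves were not at the same level for some of the genes. Of the 9, 3 were higher in Vehicle than in siCtrl and none was lower, where 7.39% of all genes were higher and 7.65% lower (edgeR, 20357 genes). None was lower with DESeq2 either, and at an unadjusted p under 0.05 HMOX1 was the 1 lower gene. NQO1 was higher in Vehicle by 0.26 on the log2 scale (adjusted p = 4.43e-04, edgeR's quasi-likelihood test) and SRXN1 by 0.89 (adjusted p = 0.00110). NFE2L2 was higher by 0.13 (adjusted p = 0.0350 in edgeR), a call lost in 5 of 16 fits that left out 1 library. The libraries of both control groups did not overlap for HMOX1 (lower in Vehicle), NFE2L2 and NQO1 (higher), where 8.98% of all genes were apart and lower and 8.79% apart and higher. This comparison shares its siCtrl libraries with the knockdown comparison, and transfection, DMSO and experiment cannot be told apart in it.

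In order of mean level, NFE2L2 was lowest in siCtrl (103 CPM), then Vehicle (113), MKC8866 (117) and siXBP1 (124), and of these steps only the one from siCtrl to Vehicle had no overlap of libraries. TXNRD1 and OSGIN1 had siXBP1 alone at the bottom, apart from the next group, with the other 3 groups overlapping. HMOX1 had siCtrl alone at the top (8.88 CPM), apart from Vehicle (7.88), while siXBP1 (6.68), MKC8866 (7.44) and Vehicle overlapped in turn. NQO1 divided by experiment, with siXBP1 and siCtrl below MKC8866 and Vehicle. For KEAP1, GCLC, GCLM and SRXN1, each group overlapped its neighbours in the order. For SRXN1 the order was siCtrl (8.76 CPM), Vehicle (16.3), MKC8866 (17.2) and siXBP1 (18), so that siCtrl was the group that differed most from the others.

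The wider pathway was described with 7 lists that hold 97 genes of the table, of which 95 passed the filter in both experiments. After knockdown 28 were lower and 18 higher, which is 29.5% and 18.9% of those tested (18.2% and 16.5% over all genes), with a median log2 fold change of −0.0083, against 0.0050 over all genes. With MKC8866, 5 were lower and 1 higher, 5.26% and 1.05% of those tested (3.11% and 1.36% over all genes).

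**Figure D3:**
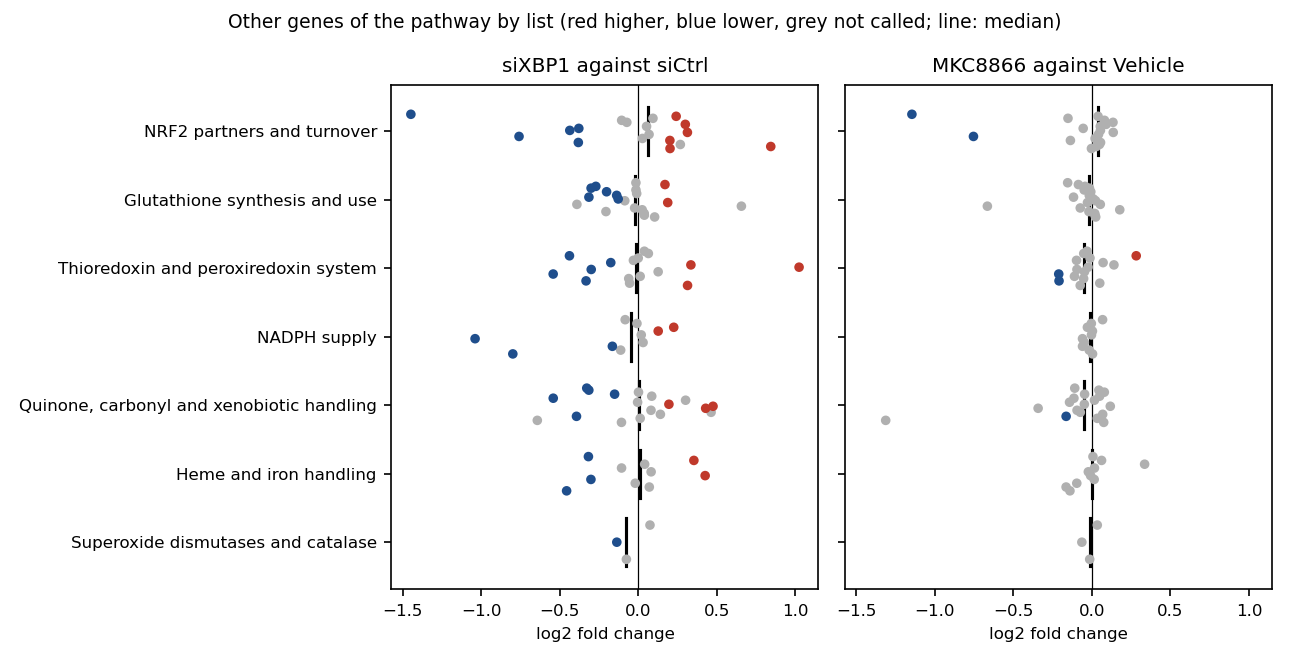
Log2 fold change of each tested gene of 7 NRF2-related lists after knockdown (left) and with MKC8866 (right), on the same axis, with genes called higher in red, lower in blue and not called in grey, and a line at the median of each list. The medians lie between −0.08 and 0.06 after knockdown, with called genes on both sides of 0, and between −0.05 and 0.04 with MKC8866, where 6 genes are called.

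Among 18 partners and regulators of NRF2 turnover, 5 were lower and 6 higher after knockdown (18.2% and 16.5% over all genes). SYVN1, the ubiquitin ligase HRD1 of ER-associated degradation, fell from 320 ± 17.4 to 117 ± 8.69 CPM (log2 fold change −1.45, adjusted p = 1.01e-15 in edgeR's quasi-likelihood test). EIF2AK3, which encodes the kinase PERK, fell from 81.8 ± 3.12 to 48.4 ± 3.03 CPM (−0.76), and MAFG, a small MAF partner of NRF2, from 40.5 ± 2.66 to 30.0 ± 1.33 CPM (−0.44). BACH1, the repressor at AREs, rose from 53.5 ± 2.27 to 96.0 ± 2.88 CPM (0.84, adjusted p = 1.19e-12). The autophagy receptor SQSTM1, which can sequester KEAP1, rose from 481 ± 20.4 to 569 ± 6.06 CPM (0.24), and NFE2L3, a relative of NRF2, from 8.01 ± 0.689 to 9.87 ± 0.915 CPM (0.30).

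With MKC8866, 2 of these 18 were lower and none was higher (1 at an unadjusted p under 0.05, none with DESeq2). Over all genes 3.11% were called lower and 1.36% higher. The called genes are given next. SYVN1 fell from 295 ± 15 to 133 ± 8.23 CPM (log2 fold change −1.14), and EIF2AK3 from 85.1 ± 1.18 to 50.4 ± 0.771 CPM (−0.75). The response of EIF2AK3 did not differ detectably between the experiments (difference −0.0036, interaction adjusted p = 0.979 in edgeR), whereas SYVN1 fell more after knockdown (−0.30, adjusted p = 0.00284). BACH1 was at 0.03 with MKC8866, and its interaction (0.82, adjusted p = 8.58e-12) was called, as was that of MAFG (−0.49, adjusted p = 7.86e-06).

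Of the 20 tested genes of glutathione synthesis and use, 6 were lower and 2 higher after knockdown (18.2% and 16.5% over all genes). GSTA4, a glutathione transferase for lipid aldehydes, fell from 40.5 ± 2.00 to 32.6 ± 0.833 CPM (log2 fold change −0.31), the membrane-bound transferases MGST2 and MGST3 by 0.30 and 0.27 on the log2 scale, and SLC3A2, the heavy chain of the cystine importer, rose from 484 ± 19.7 to 544 ± 11.2 CPM (0.17, adjusted p = 0.00139 in edgeR). SLC7A11, the light chain of that importer, was not called after knockdown (−0.01, adjusted p = 0.828 in edgeR). With MKC8866 none was called by edgeR, 4 were lower and 1 higher at an unadjusted p under 0.05 (8.00% and 7.22% over all genes), and DESeq2 called 1 lower (3.42% over all genes). GSTP1, a glutathione transferase known for its silencing in prostate cancer, had at most 1 count in a library and was not tested.

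In the thioredoxin and peroxiredoxin system 5 of 16 genes were lower and 3 higher after knockdown (18.2% and 16.5% over all genes). PRDX4, the peroxiredoxin of the ER lumen, fell from 62.2 ± 4.34 to 42.8 ± 2.95 CPM (log2 fold change −0.54), and the cytosolic PRDX1 from 159 ± 9.15 to 127 ± 10.9 CPM (−0.33). Both also fell with MKC8866, each by 0.21 on the log2 scale (adjusted p = 0.00848 and 0.00807 in edgeR's quasi-likelihood test). TXNIP, the inhibitor of thioredoxin, went in opposite directions, falling after knockdown from 319 ± 16.8 to 236 ± 15.9 CPM (−0.44) and rising with MKC8866 from 228 ± 4.99 to 276 ± 7.21 CPM (0.28), with an interaction of −0.72 (adjusted p = 2.67e-10 in edgeR). These changes started from unlike control levels, as TXNIP was lower in Vehicle than in siCtrl (−0.49, adjusted p = 2.63e-09 in edgeR). SESN1, a sestrin and p53 target, rose from 39.3 ± 2.10 to 79.9 ± 2.41 CPM after knockdown (1.02), SESN2 from 367 ± 15 to 463 ± 16.4 (0.34) and the methionine sulfoxide reductase MSRA from 4.73 ± 0.264 to 5.88 ± 0.289 (0.31).

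Among the 10 genes of NADPH supply 3 were lower and 2 higher after knockdown (18.2% and 16.5% over all genes). The mitochondrial folate enzyme MTHFD2, which is also an ATF4 target, fell from 263 ± 8.03 to 128 ± 4.64 CPM (log2 fold change −1.04, adjusted p = 5.66e-15 in edgeR). PGLS, a lactonase of the pentose phosphate pathway, rose from 22.9 ± 1.12 to 26.8 ± 2.75 CPM (0.23). None of the 10 was called with MKC8866, at an adjusted or an unadjusted p under 0.05 in edgeR or with DESeq2.

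Genes of quinone, carbonyl and xenobiotic handling gave 5 lower and 3 higher of 18 after knockdown (18.2% and 16.5% over all genes). AKR1A1, an aldehyde reductase, fell from 182 ± 6.91 to 139 ± 2.62 CPM (log2 fold change −0.39) and was the gene of this list called with MKC8866 (−0.16, adjusted p = 0.0238 in edgeR), where none was higher at either an adjusted or an unadjusted p or with DESeq2. UGDH, which makes UDP-glucuronic acid, fell from 199 ± 7.58 to 159 ± 2.37 CPM (−0.33) and the low CYP1A1 from 1.95 ± 0.291 to 1.34 ± 0.235 (−0.54). ALDH3A2 rose by 0.20 on the log2 scale and AKR1C3 by 0.48, the latter from 1.56 ± 0.224 to 2.17 ± 0.202 CPM. AKR1C genes are similar in sequence, and reads that map to several places were not counted.

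Heme and iron genes gave 3 lower and 2 higher of 10 after knockdown (18.2% and 16.5% over all genes). FECH, the last enzyme of heme synthesis, fell from 362 ± 11.2 to 294 ± 8.59 CPM (log2 fold change −0.30) and the transferrin receptor TFRC from 356 ± 8.25 to 286 ± 12.6 CPM (−0.32). The heme transporter SLC48A1 rose by 0.35 on the log2 scale and FTH1, the ferritin heavy chain, by 0.43, from 1443 ± 165 to 1939 ± 185 CPM, a gene with many processed copies in the genome. With MKC8866 none of the 10 was called by edgeR or DESeq2, with 1 lower and 1 higher at an unadjusted p under 0.05 (8.00% and 7.22% over all genes). Of SOD1, SOD3 and CAT, SOD1 was lower after knockdown (−0.14, adjusted p = 0.0473 in edgeR) and was not called with DESeq2, none was higher (none at an unadjusted p or with DESeq2), and none was called with MKC8866 by any of these. SOD2 was also meant for this list, but its symbol matched no row, so that it is not described.

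The genes whose levels were most like those of a called gene were sought over the 16 libraries, by Pearson's r of log2 CPM after each experiment was centred on its own mean, among 15041 genes with a mean of at least 1 CPM. HMOX1 was most like PIP4P1 (r = 0.981), KLK4 (0.959) and E2F4 (0.952), OSGIN1 like MYADM (0.973), MMACHC and DOLPP1, and TXNRD1 like YWHAZ (0.970), FAM177A1 and TMEM167B. NFE2L2 was most like TOX3 (0.957), TAB2 and MEAF6, GCLM like MTPN (0.941), HLTF and NUP54, and SRXN1 like UBE2S (0.942), BCDIN3D and SDC1. These libraries share the knockdown contrast and many other genes changed with it, so that a high r mainly says that a gene changed in the same libraries.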

How the data were processed

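RNA from 16 libraries of LNCaP cells was prepared with a stranded TruSeq kit and sequenced as 150 base pairs from both ends. Per the labels and the file headers, the authors aligned reads with STAR 2.5.2a to GRCh38 (Ensembl 85) and counted fragments per gene with featureCounts 1.5.0 without strand, leaving out fragments that map to several places or lie on several genes. The deposited values are raw counts of 58051 genes. Without strand, reads of a gene and of an antisense partner cannot be told apart.

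From these counts, each experiment was fitted with edgeR 4.0.16 (R 4.3.3, limma 3.58.1), with TMM normalization and the quasi-likelihood test, after genes were dropped unless both groups had a library with over 5 counts. Calls use an adjusted p (Benjamini-Hochberg over all genes tested) under 0.05. Standard errors are the absolute log2 fold change divided by the root of F. The interaction and the comparison of controls came from a fit of the 4 group means to all 16 libraries. Replicates varied by 5.40% in the knockdown and 4.97% in the inhibitor experiment (biological coefficient of variation). No libraries were identical. Scripts were tested on simulated counts. The members and lists were chosen with earlier results of these data known.

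Beside the 9 genes and XBP1, the text names, per list, comparison and direction, up to 3 called genes of the largest change whose mean reached 1 CPM and whose libraries did not overlap, the 3 genes most like each called member, and genes that overlap a member. GSTP1, SLC7A11, the basal markers, COL1A1 and the genes of the smallest list are named as list members. Some results are not reported here. Alternatives were RLE size factors, no filter, at least 10 counts in every library, DESeq2 1.42.0, a replicate block, 1 fit of all libraries, a threshold of 0.01 and leaving out each library. Correlations used a pseudocount of 0.1 CPM.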

Additional observations from a re-analysis of the deposited data

Results flagged for a closer look

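Of 40 groups of 4 libraries checked for the 9 genes and XBP1, 2 held a library far from the other 3 by Dixon's criterion, where chance gives about 1 in 20. These were NFE2L2 in siXBP1, with a highest library of 132.7 CPM, and SRXN1 in siCtrl, with a highest library of 15.1 CPM.

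For 6 genes the response to knockdown differed from the response to MKC8866 in edgeR's interaction test. The difference on the log2 scale was 0.96 for SRXN1, 0.30 for GCLM, 0.21 for NFE2L2, −0.29 for TXNRD1, −0.33 for HMOX1 and −0.41 for OSGIN1.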

How the results depend on the processing

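The 6 calls after knockdown held under every alternative run, with log2 fold changes of 0.23 to 0.28 for NFE2L2, −0.44 to −0.37 for HMOX1, −0.33 to −0.27 for TXNRD1, 0.18 to 0.24 for GCLM, 0.90 to 1.45 for SRXN1 and −0.62 to −0.52 for OSGIN1. In the inhibitor experiment the pathway genes called higher were 1 in the reported fit, 2 without the filter and 1 to 2 when 1 library was left out. The interaction of HMOX1 was lost without the filter (adjusted p = 0.104 in edgeR), and GCLC was called with DESeq2 (adjusted p = 0.0453) and in 3 of 16 fits without 1 library. NFE2L2 between the controls was lost with RLE (adjusted p = 0.0502) and without the filter (adjusted p = 0.0936). Signs changed only in values that were not called. These were the KEAP1 interaction (−0.00031 with at least 10 counts, −0.035 to 0.031 leaving out 1 library) and GCLC between the controls (−0.0091 with RLE, −0.0087 without the filter, −0.0092 with at least 10 counts, −0.0091 with DESeq2, −0.034 to 0.035 leaving out 1 library). Leaving out 1 library also gave −0.088 to 0.0030 for NQO1 after knockdown, −0.047 to 0.0049 for TXNRD1 with MKC8866, −0.064 to 0.023 for the NQO1 interaction and −0.016 to 0.047 for KEAP1 between the controls. The cause was not tested. SRXN1 and HMOX1 had the largest standard errors, 0.204 and 0.084 after knockdown and 0.081 and 0.082 with MKC8866. They had as few as 203 and 181 counts in a library, and siCtrl replicate 2 lay far from its group for SRXN1. The part of either in these standard errors was not tested.

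With the replicate number as a block, 1 of the 9 genes was called lower with MKC8866 (OSGIN1, adjusted p = 0.0184 in edgeR, against 0 without it). Pathway genes called with MKC8866 were 15 lower and 6 higher in that fit, against 5 and 1 without the block. Over all genes 7.05% were called lower and 6.0% higher with the block, against 3.11% and 1.36% without it. GCLC joined the interaction calls with the block (adjusted p = 0.0199 in edgeR). Deviations of libraries with the same number correlated at 0.083 to 0.333 in the inhibitor experiment, 3 of 4 above 0.1 (mean 0.201, against −0.067 for other pairs), and at 0.0071 to 0.062 in the knockdown experiment. Of 8 libraries, 6 correlated best with their own number in the inhibitor experiment, a hint from the data of shared structure there that the labels do not state, and 0 in the knockdown experiment. The block was therefore kept as an alternative. The block was not run for the comparison of controls.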
